A study of Caenorhabditis elegans with 2 samples.

Results

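The genes described here encode the Caenorhabditis elegans machinery that removes introns from pre-mRNA and forms the 3' ends of mRNA. They were chosen by symbol, as every protein-coding gene named snr-, prp-, rsp-, rnp-, mog-, uaf-, sftb-, cpsf- or cpf- and a number, with pfs-2 added, which gave 55 of the 19973 protein-coding genes of the nuclear chromosomes. A gene was called bound when a summit of the authors' thresholded peak list lay within 500 bp of the start of any of its annotated transcripts, so the word refers to the position of a summit and to nothing else. By that rule 35 of the 55 genes (63.6%) were bound, against 3311 (16.6%) of all protein-coding genes. The plot of replicate signals gives both values for every gene.

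**Figure D1:**
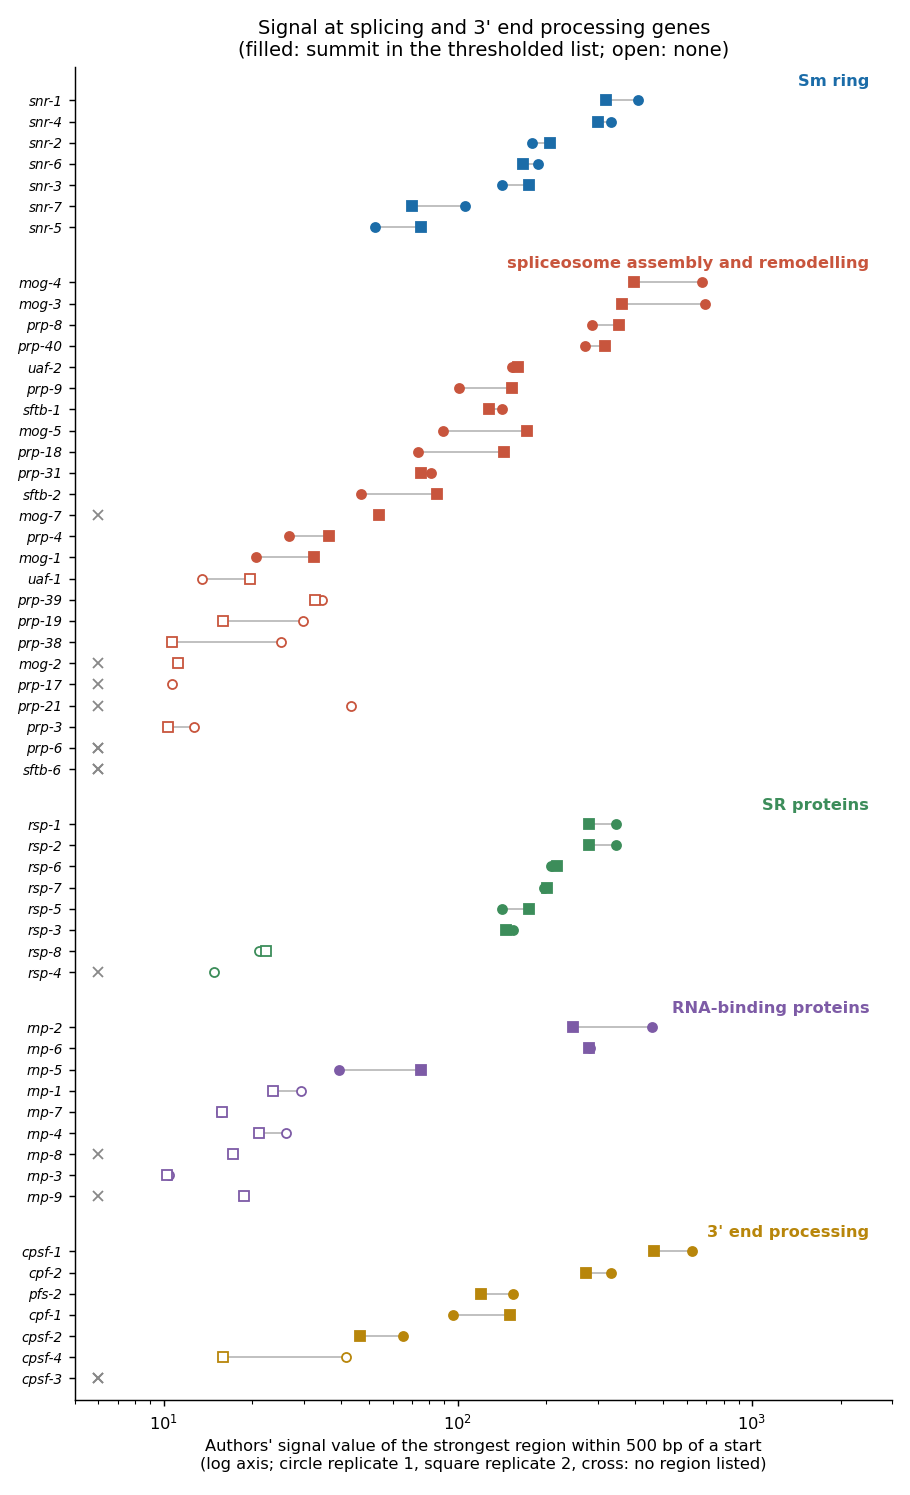
Signal of the strongest region within 500 bp of a start for each of the 55 genes, on a log axis, with circles for replicate 1 and squares for replicate 2. Filled symbols mark the 35 genes with a summit in the thresholded list, open symbols the other 20, and crosses at the left edge the genes with no listed region in that replicate. The bound genes reach 692.8 in replicate 1 and 464.8 in replicate 2, while the highest values of unbound genes are 43.4 and 32.8. The sets overlap at the low end, where the bound mog-1 has 20.6 and 32.32. The thresholded peaks are the pooled regions of highest signal, so a difference in signal is partly set by the call.

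Introns are removed by the spliceosome, which is built from small nuclear ribonucleoproteins (snRNPs) on each pre-mRNA and is remodelled by ATP-dependent helicases between its steps. The Sm proteins form the ring around most spliceosomal small nuclear RNAs, SR proteins mark exons and recruit the machinery, and the cleavage and polyadenylation factors cut the transcript at its 3' end. In worms a short leader is joined to many transcripts by trans-splicing, so that an annotated start is often a splice acceptor downstream of the place where transcription began, and neighbouring genes of one strand can be transcribed together as an operon from a single upstream promoter.

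The samples were whole L4 hermaphrodites of strain OP248, in which MES-2 carries a GFP-FLAG tag at its C terminus. This protein is the worm version of Enhancer of zeste, the histone methyltransferase of Polycomb repressive complex 2. Chromatin sheared by sonication was precipitated with an antibody against GFP before sequencing. The 2 samples are biological replicates 1 and 2 of 1 group, the construct's promoter is not given in the sources used here, and no untagged or input sample was analysed here, so MES-2 occupancy and any signal that such a precipitation gives without it cannot be told apart. The lists hold 5501 thresholded peaks, made from both replicates, and 30000 unthresholded regions each for the pooled reads, for replicate 1 and for replicate 2. They give no read counts, so the depth is unknown, and the signal is the authors' value for each region, on a scale that is not stated. The thresholded list carries the values of the pooled list, and whether the replicate lists are on one scale with each other or with the pooled list is not stated. Positions are on ce11, which is WBcel235, counted from 1.

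All 7 genes of the Sm ring were bound, and in each the summit lay 229 to 401 bp upstream of the start. The median distance was 346 bp, against 159 bp over all bound genes. The strongest was snr-1, the SmD3 gene (WBGene00004914), whose peak reached 732.7 in the thresholded list, 411.1 in replicate 1 and 318.9 in replicate 2. Its summit lay between genes on chromosome IV, 401 bp upstream of the snr-1 start and 210 bp upstream of snx-13, which runs the other way. The bases around that summit, chrIV:17087568-17087728 on the + strand, are shown because snr-1 leads the group and because the letters in capitals, TTCGAA, recur at most of the summits described below.
snr-1: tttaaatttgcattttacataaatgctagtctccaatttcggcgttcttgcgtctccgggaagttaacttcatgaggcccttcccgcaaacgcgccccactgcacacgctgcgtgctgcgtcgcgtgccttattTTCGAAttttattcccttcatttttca

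The SmD2 gene snr-4 followed with a signal of 625.5, and 330.9 and 299.5 in replicates 1 and 2. Its window also held an annotated snRNA gene, T11F9.15, so its summit had more than one kind of gene beside it. The SmB gene snr-2 reached 359.1, with 178.3 and 205 in the replicates, and the SmE gene snr-6 reached 340.7, with 187.2 and 166.8. These 4 genes were among the strongest 5501 regions of both replicates, as were the remaining 3. The SmD1 gene snr-3 had a signal of 310.8, and 141.3 and 174.3 in the replicates. The SmG gene snr-7 had 188.4, with 105.7 and 70.06, and its summit was the only one of all bound genes described here that lay inside a transcribed unit, in the 5' UTR of the divergent gene Y71F9B.6. The SmF gene snr-5 was the weakest of the ring with 134.7, and 52.11 and 75.11 in the replicates.

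The snr-3 summit is one of 2 that served a pair of these genes at once. It lay 229 bp upstream of snr-3 and 175 bp upstream of rsp-5, an SR protein gene on the opposite strand, with 403 bp between the genes. The bases around it, chrII:6489910-6490070, are given on the - strand, the sense of snr-3, and were chosen for this shared position after the values were seen.
snr-3: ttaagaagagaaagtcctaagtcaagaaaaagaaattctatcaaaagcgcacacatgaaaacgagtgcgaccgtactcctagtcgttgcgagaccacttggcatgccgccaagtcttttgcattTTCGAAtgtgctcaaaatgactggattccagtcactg

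Of the 24 genes for spliceosome assembly and remodelling 14 were bound, with signals from 86.86 to 1047. The helicase gene mog-4, the counterpart of yeast PRP2 (WBGene00003392), led them with a signal of 1047, and 678.4 and 397.2 in replicates 1 and 2. The mog genes are named for masculinized germ lines, which fail to switch from sperm to oocytes. The mog-4 gene has no protein-coding neighbour within 1000 bp of its start, and its summit lay between genes, 226 bp upstream. The bases around it, chrII:14561745-14561905, are shown on the - strand, the sense of mog-4.
mog-4: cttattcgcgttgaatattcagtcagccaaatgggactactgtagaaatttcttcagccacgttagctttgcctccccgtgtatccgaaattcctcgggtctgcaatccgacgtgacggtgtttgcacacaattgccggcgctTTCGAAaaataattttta

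The signal at mog-3 was nearly as high, at 1042, with 692.8 in replicate 1 and 360.4 in replicate 2. Both genes thus ranked higher in replicate 1 (81 and 76) than in replicate 2 (149 and 179). Next came prp-8, the U5 snRNP protein at the catalytic centre, with 624.8 and replicate values of 285.7 and 352, and prp-40, a U1 snRNP factor, with 570 and replicate values of 270.2 and 316.8. The small U2AF subunit gene uaf-2 reached 318.8, with 153 and 159.9, and had the nearest summit of all bound genes described here, 13 bp upstream of its start.

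The U2 snRNP was represented by 3 bound genes of moderate signal. The SF3A subunit gene prp-9 had 297.1, with 100.8 and 152.8 in replicates 1 and 2, and the SF3B1 gene sftb-1 had 287.8, with 141.7 and 127.7. The SF3B2 gene sftb-2 had 151.4, with 46.94 and 84.94. The sftb-1 summit lay 448 bp upstream and was the farthest from its gene, 25 bp from the start of the divergent R10E4.1.

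Among the factors of later steps, the signal of mog-5, a DEAH helicase gene counterpart to yeast PRP22, was 265.7, with 89.14 and 172 in replicates 1 and 2. The second-step gene prp-18 had 229.2, with 73.4 and 143.7, and the U4/U6 gene prp-31 had 158.1, with 81.26 and 74.85. The other 3 bound genes of this group were weak. The signals were 96.8 at mog-7, 87.77 at the U4/U6 gene prp-4 and 86.86 at mog-1, the counterpart of yeast PRP16. In replicates 1 and 2 prp-4 had 26.67 and 36.49 and mog-1 20.6 and 32.32, below the strongest 5501 regions of either. No region at mog-7 was listed in replicate 1, and the one in replicate 2 had 54.07. These are the only bound genes described here that were not among the strongest 5501 regions of both replicates.

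The other 10 genes of the group were unbound, and 6 of them had no pooled region in the window. These were mog-2, which encodes protein A' of the U2 snRNP, the second-step gene prp-17, the SF3A subunit gene prp-21, the U4/U6 gene prp-3, the tri-snRNP gene prp-6 and the SF3B subunit gene sftb-6. At prp-6 and sftb-6 neither replicate list held a region either, and prp-21 had one of 43.4 in replicate 1 and none in replicate 2. The remaining 4 had weak pooled regions, at 51.03 for uaf-1, the large U2AF subunit gene, 42.62 for the U1 factor gene prp-39, 29.66 for prp-19, which encodes a ubiquitin ligase of the activated spliceosome, and 26.24 for the activation factor gene prp-38. Thus the U2AF subunit genes differed in call, with replicate values of 13.54 and 19.69 at uaf-1. At prp-19 a peak of signal 2472 lay 646 bp upstream, outside the window and 29 bp from the start of the divergent K10D2.5. The 150 bases before the prp-6 start, chrV:18022329-18022478 on the + strand, are shown as those of a gene with no region in any of the 4 lists. They hold no TTCGAA and end in cag, the letters of a splice acceptor.
prp-6: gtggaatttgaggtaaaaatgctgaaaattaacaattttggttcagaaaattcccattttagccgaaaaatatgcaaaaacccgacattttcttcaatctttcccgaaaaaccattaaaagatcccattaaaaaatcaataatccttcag

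SR proteins were bound in 6 of 8 genes, with signals in a narrower range, 306.7 to 635.6. The strongest summit, at 635.6 with 344.8 and 279.2 in replicates 1 and 2, lay between the divergent SR protein genes rsp-1 and rsp-2, with 406 bp between the genes. It was 258 bp upstream of rsp-2 (WBGene00004699) and 149 bp upstream of an rsp-1 start that belongs to a transcript annotated as non-coding. With starts of coding transcripts only, rsp-1 was unbound, and 34 members were bound, against 16.5% of all genes. The bases around the summit, chrII:11453133-11453293, are shown on the - strand, the sense of rsp-2, and hold no TTCGAA.
rsp-2: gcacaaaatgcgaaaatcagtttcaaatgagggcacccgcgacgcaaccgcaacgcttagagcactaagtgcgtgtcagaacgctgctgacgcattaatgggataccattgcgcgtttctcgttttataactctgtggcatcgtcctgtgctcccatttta

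The other 4 bound SR protein genes were among the strongest 5501 regions of both replicates. The SRSF3-like rsp-6 had 444.9, with 206.6 and 216.7, and rsp-7 had 398.2, with 196.7 and 201.2. The signals were 310.8 at rsp-5, whose summit and replicate values are those of snr-3, and 306.7 at rsp-3, the SRSF1 gene, with 154.4 and 145.6 for the latter in the replicates. The unbound members were rsp-4, the SC35 gene, with a pooled region of 19.62, and rsp-8, the TRA2 gene, with one of 40.28. A thresholded summit lay 579 bp upstream of rsp-8, the nearest to the edge of the window among the unbound genes.

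The genes named rnp-, which share an RNA-recognition motif and serve several complexes, were bound in 3 of 9 cases. The strongest was rnp-2, the gene of protein A of the U1 snRNP (WBGene00004385), with 705.9, and 457.8 and 245.4 in replicates 1 and 2. It starts 133 bp from its summit, and K08D10.13 runs away from the other side. The PUF60 gene rnp-6 had 586.5, with 281.3 and 280, and the RNPS1 gene rnp-5 had 115, with 39.52 and 75.07. The rnp-2 region ranked 177 in replicate 1 and 425 in replicate 2. The U2B''-type gene rnp-3 lies directly downstream of rnp-2 on the same strand, 72 bp beyond its end, and was unbound, with 20.44 in the pooled list and 10.45 and 10.23 in the replicates. The bases around the rnp-2 summit, chrIV:4171863-4172023, and the 72 bases between the end of rnp-2 and the rnp-3 start, chrIV:4174017-4174088, both on the + strand, are shown to set a bound and an unbound member of one run of genes side by side. Neither holds TTCGAA, and the bases before rnp-3 end in cag.
rnp-2: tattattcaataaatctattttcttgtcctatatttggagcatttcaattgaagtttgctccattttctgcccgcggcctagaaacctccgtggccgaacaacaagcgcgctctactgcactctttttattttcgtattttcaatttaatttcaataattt
rnp-3: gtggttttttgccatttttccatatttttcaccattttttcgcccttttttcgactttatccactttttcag

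The other unbound rnp genes were rnp-1, with a pooled region of 57.33, the U1-70K gene rnp-7 with 38.57, the Y14 gene rnp-4 with 37.29 and rnp-8, which encodes a partner of the poly(A) polymerase GLD-2, with 24.18. No pooled region was listed at rnp-9, the only one of the 55 genes on the X chromosome. The value at rnp-1 was the highest of any unbound member, against 86.86 at mog-1, the lowest of the bound ones, and the thresholded list itself reached down to 73.54.

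Cleavage and polyadenylation genes were bound in 5 of 7 cases and included the strongest signal of all 55 genes. This was cpsf-1 (WBGene00022301), for the large subunit of the cleavage and polyadenylation specificity factor, at 1084 and place 99 of the 5501 peaks, with 624.7 and 464.8 in replicates 1 and 2. Its ranks in the replicates were close, 97 and 101. The gene has no protein-coding neighbour within 1000 bp of its start, and the summit lay 213 bp upstream. The bases around it, chrIV:2033129-2033289 on the - strand, the sense of cpsf-1, hold no TTCGAA, like those of rsp-2 and rnp-2.
cpsf-1: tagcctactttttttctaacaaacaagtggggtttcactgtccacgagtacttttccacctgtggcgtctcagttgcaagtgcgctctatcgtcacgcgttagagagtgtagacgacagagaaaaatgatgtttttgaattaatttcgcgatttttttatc

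The CstF64 gene cpf-2 followed with 628.6, and 332.5 and 272.2 in replicates 1 and 2. The WDR33 gene pfs-2 had 274.9, with 154.3 and 120.2, and the CstF50 gene cpf-1 had 273.6, with 96.36 and 150.2. The cpf-1 window also held the start of the ribosomal protein gene rpl-26 and an annotated snoRNA gene, F28C6.11. The CPSF subunit gene cpsf-2 was the weakest, with 131.3, and 65.05 and 46.42. Unbound were cpsf-3, the gene of the endonuclease that cuts the transcript, with no region in any of the 4 lists, and cpsf-4, the CPSF30 gene, with a pooled region of 52.7. A summit 634 bp upstream of cpsf-4 fell outside the window.

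The replicates placed these summits closely. Part of this may be set in advance, since the list that defines a bound gene was thresholded by the irreproducible discovery rate. Of the 35 bound genes 34 had a region at the start in both replicate lists, and over the 32 distinct summits behind them the replicates' summits lay a median of 11 bp and at most 38 bp apart. The replicate signals of those 32 summits had a Spearman correlation of 0.914, given as a description, since they share libraries. These distances and this correlation are not given for all bound genes, so they show nothing particular to the members. Taking the strongest 5501 regions of each replicate alone, 34 of the 55 genes were bound in replicate 1, against 16.1% of all genes, and 33 in replicate 2, against 17.1%. In both replicates at once 32 were bound, against 13.5% of all genes. The genes gained in replicate 1 were cpsf-4 and prp-21, neither of which passed in replicate 2. Separate cultures are not described beyond the replicate number, so the spread between these samples may be technical.

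The count of bound genes changed with the window and with the threshold. With summits counted within 250 bp only, 22 genes (40.0%) were bound, against 11.3% of all genes, and 6 of the 7 Sm genes were among the 13 that dropped out, all but snr-3. The other 7 were pfs-2, prp-8, rnp-5, rsp-2, rsp-3, rsp-7 and sftb-1. Within 1000 bp 39 genes were bound, against 20.6% of all genes, the 4 gained being cpsf-4, prp-19, rnp-8 and rsp-8. Counting a summit only for the nearest start left 24 genes, against 13.5% of all genes. The 11 lost, whose summits lay nearer the start of another gene, included the Sm genes snr-1, snr-2, snr-3 and snr-7. The rest were pfs-2, rnp-5, rnp-6, rsp-2, rsp-3, sftb-1 and sftb-2. The most 5' start of each gene gave 35, against 15.5%, and an overlap of the peak with the window also 35, against 17.4%.

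With only the peaks of signal 139.9 or more, the upper part of the list, 29 genes were bound, against 11.3% of all genes, and cpsf-2, mog-1, mog-7, prp-4, rnp-5 and snr-5 dropped out. In the pooled list with a −log10 q of at least 2 the count was 42, against 27.7% of all genes, and with all 30000 pooled regions it was 47, against 34.0%. The share of members was above that of all genes under each of these rules. The bound calls of 14 genes held under all 12 alternatives: cpf-1, cpf-2, cpsf-1, mog-3, mog-4, mog-5, prp-9, prp-18, prp-31, prp-40, rnp-2, rsp-5, rsp-6 and uaf-2. Under none of them were 7 genes bound: cpsf-3, mog-2, prp-3, prp-6, prp-17, rnp-9 and sftb-6. The matching share of all protein-coding genes is not given here, so these 2 counts describe the members only. Without the rnp and rsp genes, whose symbols cover proteins of several roles, 26 of 38 genes (68.4%) were bound by the main rule, against 16.6% of all protein-coding genes.

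**Figure D2:**
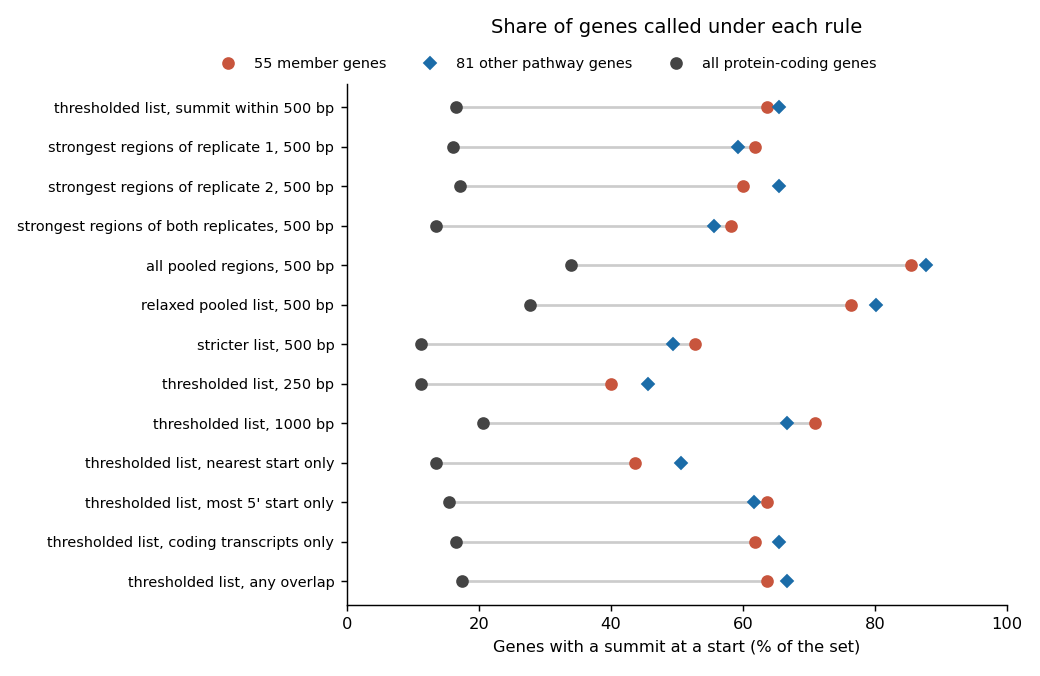
Percentage of genes with a summit at a start under 13 rules for the 55 member genes, for 81 other genes of the pathway and for all 19973 protein-coding genes. The members lie between 40.0 and 85.5% and all genes between 11.3 and 34.0%, and the members are above all genes under every rule plotted.

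The levels and positions of the bound members were set beside those of all bound genes. Their median signal was 310.8, against 206.7 for all 3311 bound genes, and 12 (34.3%) had a signal of 500 or more, against 16.3%. All 35 summits lay upstream of the start, against 87.1% of bound genes, and the median distance was 177 bp, against 159 bp. Of the 33 distinct summits 32 (97.0%) were intergenic, against 72.7%, and the median GC content from 150 bases before to 150 after the summit was 34.9%, against 37.5%. In 24 cases (68.6%) the same summit lay within 500 bp of the start of a further protein-coding gene, against 38.4% of all bound genes. With windows of 250 bp this was so for 7 of 22 bound members (31.8%), against 26.0% of all bound genes. A summit shared in this way cannot be assigned to either gene. These are descriptions of a list chosen by symbol, with no test.

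The calls were split by the direction of the upstream neighbour. Of 31 genes whose nearest protein-coding neighbour on the 5' side ran the other way, with at most 1000 bp between the genes, 26 (83.9%) were bound, against 37.8% of all genes so placed. The 5 exceptions were prp-17, prp-19, prp-21, sftb-6 and cpsf-4. Of 11 genes with no such neighbour, 6 were bound, namely snr-5, mog-1, mog-3, mog-4, cpf-2 and cpsf-1, against 10.9% of all genes so placed. Of 13 genes with a same-strand neighbour only snr-4, rsp-6 and cpsf-2 were bound (23.1%), against 13.0%. Taking the other 42 members together, 32 (76.2%) were bound, against 18.1%. The 81 other genes of the pathway, described below, were bound in 19 of 33 cases with a same-strand neighbour. They were bound in 26 of 30 cases with a neighbour running the other way and in 8 of 18 with none. The low share of the same-strand members was not seen in that list.

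**Figure D3:**
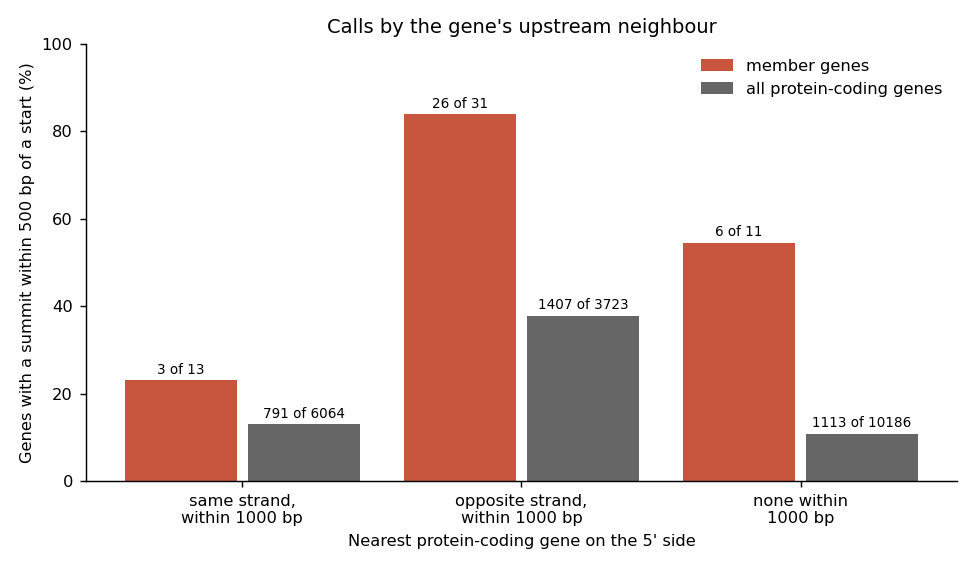
Percentage of genes bound, split by the nearest protein-coding gene on the 5' side, for the members and for all protein-coding genes, with the number bound of the number in each class above the bars. The bars of the members are above those of all genes in the 3 classes, at 23.1, 83.9 and 54.5% against 13.0, 37.8 and 10.9%.

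In most of the unbound genes with a same-strand neighbour, that neighbour's start was bound instead. This was so for 8 of the 10, against 19.4% of the 5273 unbound genes of the genome that have such a neighbour, a follow-up made after the calls were seen. The unbound rnp-3 lies 72 bp behind rnp-2, with its summit of 705.9, and rnp-7 lies 4 bp behind syf-2, another splicing factor gene, with 466.6. The gene prp-38 lies 106 bp behind plrg-1, whose product belongs to the Prp19 complex, with 811.6, and prp-39 lies 90 bp behind hmgs-1, with 766.1. The others were prp-3 behind smrd-1 (577.4), rsp-4 behind ndx-6 (461.6), cpsf-3 behind Y67H2A.10 (447.8) and rnp-1 behind dpy-30 (261.3). The exceptions were mog-2, behind H20J04.6, and rnp-4, behind snfc-5, whose starts were unbound. No annotation of operons was used, so whether these pairs are transcribed together was not tested.

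Bases before the starts were looked at for the letters of a splice acceptor, a description added after the values were seen. The 3 bases before the most 5' start were CAG in 30 of the 55 genes (54.5%), against 22.1% of all protein-coding genes and 37.9% of all bound genes. The Sm genes had them in 5 of 7, the bound members as a whole in 17 of 35 and the unbound ones in 13 of 20. The distance from such a start is therefore measured from a possible acceptor in many of these genes, and the position of transcription initiation was not measured.

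No motif of a list of 6, searched on both strands, stood much above its share of all promoters in the members' promoters, taken from 250 bases before to 50 after the most 5' start. The letters GAGAGA were in 16.4% of the 55 promoters and in 21.8% of all promoters, and TATAAA in 25.5% and in 37.9%. The letters CACGTG were in 3.64% and in 5.82%, GGGCGG in 5.45% and in 7.83%, and TTCCCGCC in 0 of the 55 and in 1.10% of all. The one that was more frequent was TGCGTC, in 12.7% and in 8.78%. In windows reaching 150 bases to either side of the summit GAGAGA was in 21.2% of the members' 33 windows, against 43.1% of all 5501. There CACGTG was in 3.03% against 7.58%, GGGCGG in 6.06% against 12.2%, and TTCCCGCC in 0 of 33 against 1.65%. The letters TGCGTC were in 27.3% against 22.9%, and TATAAA in 27.3% against 24.9%.

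All strings of 6 to 8 bases were then counted in the windows of 150 bases to either side of the 33 summits of the members, and the one with the largest excess over all thresholded summits was the palindrome TTCGAA, out of 2080 strings of 6 bases. Because it was picked for that excess, its share is inflated by the choice and is given with no test. It was in 28 of 33 windows (84.8%), against 18.7% of all 5501 windows and 21.3% of the 2878 whose summit lay near a protein-coding start. Leaving out summits near tRNA genes, whose T loop holds similar letters, the last share was 21.2%. The longer string TTCGAAAA, first among 32894 strings of 8 bases, was in 23 windows (69.7%), against 7.96% of all windows. The 5 windows without TTCGAA were those of cpsf-1, pfs-2, prp-40, rnp-2 and the pair rsp-1 and rsp-2, and all of these genes but pfs-2 were among the 12 with a signal of 500 or more.

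**Figure D4:**
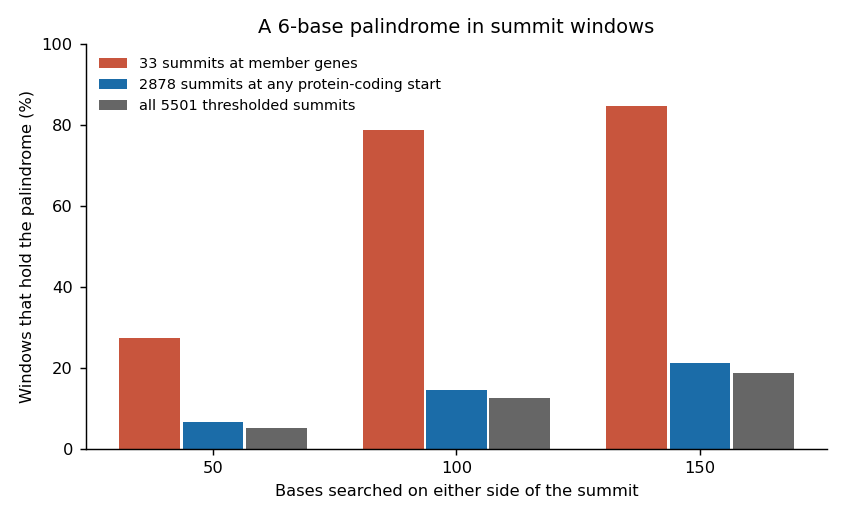
Percentage of summit windows that hold the 6-base palindrome, by the number of bases searched on either side of the summit, for the 33 summits of the members, the 2878 summits near any protein-coding start and all 5501 summits. The members stand at 27.3, 78.8 and 84.8% with 50, 100 and 150 bases on either side, against 5.25, 12.5 and 18.7% of all summits.

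In 23 of the 29 bound genes with the palindrome (79.3%) the copy nearest the summit lay on the side of the gene, against 53.1% of the 772 bound genes of the genome with a copy. The 772 are counted by gene, so a summit between divergent bound genes can enter once on each side, which draws their share towards an even split. Members mostly enter without their divergent partner, so this share and the next are not like for like. All 23 copies lay 20 to 100 bp from the summit, as did the nearest copy, on the same side, in 37.2% of those 772 genes. These bounds were set after the members' positions were seen, so the second share is low partly by that choice. In all 7 Sm genes it lay 47 to 84 bp from the summit towards the gene. The exceptions, on the far side, were mog-3, mog-7, rsp-5, rsp-6, rsp-7 and cpsf-2. For rsp-5 this follows from the summit it shares with snr-3, since both genes read outward from the same copy.

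**Figure D5:**
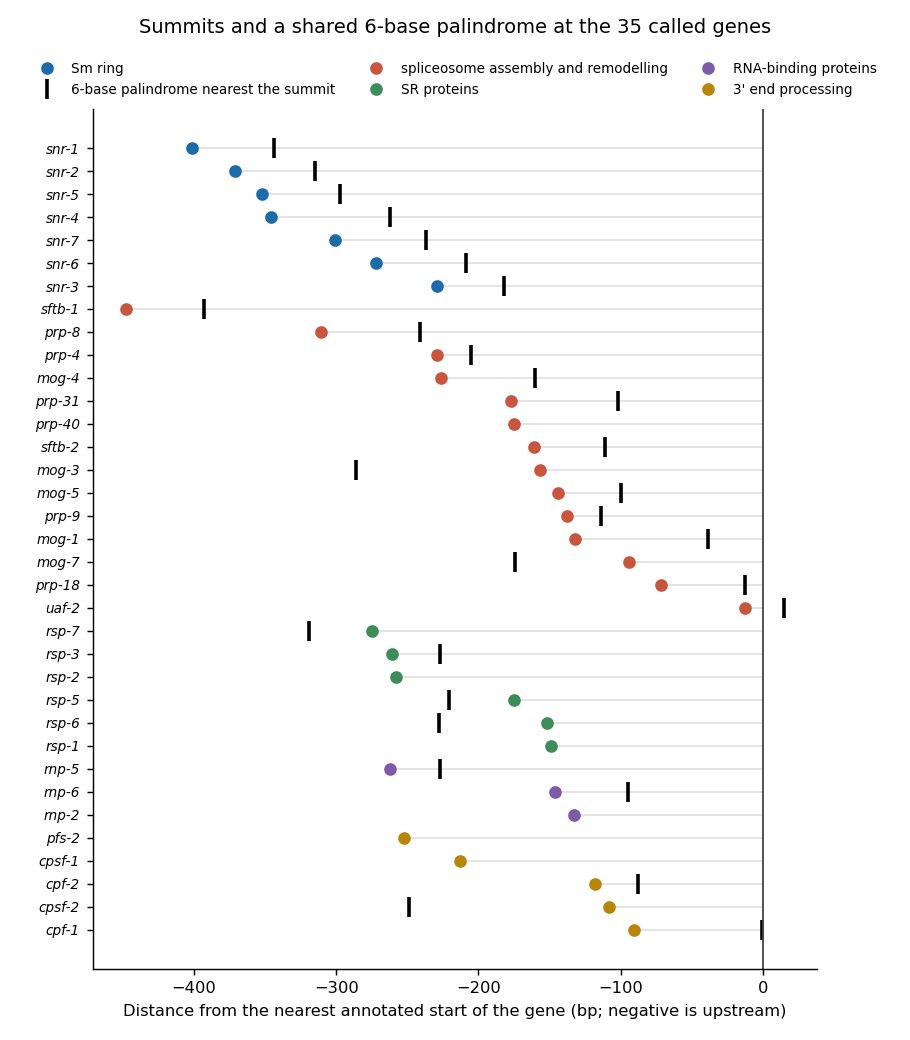
Position of the summit (dot, coloured by role) and of the nearest copy of the 6-base palindrome (black bar) relative to the nearest start of each of the 35 bound genes, in bp, with negative values upstream. All 35 dots lie upstream of the start, between 13 and 448 bp, and 23 of the 29 bars lie 20 to 100 bp from the dot on the side of the gene.

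Apart from snu-13, which shares its summit with rsp-7, the other genes of the pathway had no part in the scan. In the 52 summit windows of the pathway list, leaving out those shared with members, the palindrome was present in 20 (38.5%), against 21.3% of summits near any start. It was in 39.5% of the 81 promoters of that list, bound or not and with snu-13 included, and in 18.2% of all promoters. Over the genome its presence went with a small difference in calls: 20.1% of 3631 genes with it in the promoter were bound, and 15.8% of 16342 without it. Among the unbound members prp-21, rnp-7, rnp-8 and sftb-6 had it in the promoter. A match is a description of the letters and shows no site of any factor.

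Other genes of the pathway, listed by symbol, had a share of calls close to that of the members. Of 82 symbols listed 81 were in the annotation, and 53 (65.4%) were bound, against 16.6% of all genes, 44 of them also among the strongest 5501 regions of both replicates. The strongest were sluh-7 for a second-step factor at 1553, plrg-1 at 811.6, usp-39 for a tri-snRNP protein at 693.4, rsr-1 for an SR-related protein at 620.8, spk-1 for an SR protein kinase at 575.4 and sna-2 for a protein of the spliced-leader snRNP at 554.7. The other 28 were unbound. Of the bound genes of this list 13.2% had a signal of 500 or more, against 34.3% of the bound members, and 45.3% shared a summit with a further start, against 68.6%, with no test of either.

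By chromosome, the members on II were bound in 10 of 14 cases, those on III in 10 of 16, those on IV in 6 of 9 and those on V in 3 of 7, against 16.0, 26.4, 15.2 and 10.3% of all genes on them. On chromosome I 6 of 8 members were bound, against 23.7% of its genes.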

How the data were processed

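Chromatin immunoprecipitation with sequencing was done on 2 biological replicates of 1 group, per the labels. The authors' deposited files used here are 4 peak lists on ce11, namely the unthresholded regions of each replicate, those of the pooled reads, and a list the authors thresholded by the irreproducible discovery rate of the peaks. The authors' signal column holds 1 positive value per region, and its scale is not given in the sources used here. It was used to rank and describe regions within a list, and the replicate lists were compared by rank. Deposited −log10 q-values served only for the relaxed list (17622 pooled regions with at least 2). The aligner, the peak caller and its threshold were likewise not given in the sources used here. All 5501 thresholded peaks were the 5501 pooled regions of highest signal. Depth is unknown, so no interval that needs it is given. The ce10 lists were not used.

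Chromosome names and summit positions were checked against the WBcel235 genome (RefSeq), from which the sequences were read. Genes and transcript starts came from Ensembl release 115, without mitochondrial genes. Summits were taken as deposited, 1-based. A gene's values are those of its strongest region within 500 bp of a start. The neighbour class takes the nearest protein-coding gene on the 5' side with a gap of at most 1000 bp. The members, gene lists and rules were chosen with earlier results of these data known. Every member was named, with all lists' values for bound ones, the 6 strongest bound genes of the pathway list, and sequences were printed for 8 genes outside chromosome I, the strongest bound one of each role, 2 unbound ones and snr-3. No test was run: 1 group without controls allows counts and values beside those of all genes. Calls were tested on simulated summits at known distances. Alternatives varied the window, starts, assignment, threshold, replicates, neighbour gap and sequence window. Scripts used Python 3.11.15, numpy 2.4.6, scipy 1.17.1 and matplotlib 3.10.9.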

Additional observations from a re-analysis of the deposited data

How the results depend on the processing

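The count of 35 bound genes stayed within 1.5 times under all alternatives but the 250 bp window, which gave 22. Leaving out either replicate gave 33 to 34. The median signal of bound genes, 310.8 in the thresholded list, was 154.3 to 172 with one replicate left out, read from the other replicate's own list, whose scale may differ. The number of bound genes whose window held a further start was 24, and 7 of 22 with the 250 bp window, which is narrower by construction. The share of summit windows with TTCGAA was 84.8%, and 27.3% with 50 bases on either side of the summit in place of 150, a width chosen after the data were seen, as were 100 bases on either side, the coding transcripts and the regions of both replicates. The median distance of -177 bp, negative being upstream, moved to between -226 and -147.5 bp. Over the 12 alternatives for calls, single genes lost their call 39 times and gained one 25 times. The share of members bound stayed above that of all genes under every alternative for calls. One direction reversed with the sequence window, that of TATAAA. It was in 25.5% of the members' promoters against 37.9% of all promoters, but in 27.3% of their summit windows against 24.9% of all. No paired analysis was possible because there is 1 group. Without read counts, a gene with no region cannot be told from one sequenced too shallowly. Between the replicate lists, signals were compared by rank only, since their scales may differ.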
